A study of Mus musculus with 18 samples.

Results

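The 10 genes described here are targets of the cellular response to low oxygen: Vegfa, Adm, Bnip3, Ankrd37, Egln3, Egln1, Car9, Pdk1, Ndrg1 and Ddit4. They were chosen by symbol, and each gene was read from the probe with the highest mean log2 level over all 18 arrays. All 10 genes had a probe, 20 probes in all, among 19057 genes with 1 symbol and 45281 probes on the array. The arrays were Illumina MouseWG-6 v2 BeadChips. Of them, 2 held medulloblastomas (MBs), 1 from an NdpKO;Ptch+/- mouse and 1 from a Ptch+/- mouse, and 16 held granule neuron progenitors (GNPs), with 4 arrays each of NdpKO;Ptch+/-, NdpKO, Ptch+/- and wild-type (WT) mice. GNPs are the cerebellar cells from which hedgehog-driven MB arises. They were taken from cerebella at postnatal day 6 and enriched on a Percoll gradient and by preplating, so other cerebellar cells can remain.

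In NdpKO mice a lacZ cassette disrupts Ndp, which is X-linked, and the study's cross gives NdpKO and NdpKO;Ptch+/- mice as males only while its other controls are of both sexes. Ptch+/- mice carry 1 mutant germline allele of Ptch1, the receptor that holds hedgehog signalling back. The labels give a C57Bl/6 strain for WT and Ptch+/- animals, a mixed background for NdpKO animals and NdpKO;Ptch+/- replicate 2, and no strain for the other NdpKO;Ptch+/- arrays. The study states that controls came from the breeding cohort of the compound mutants, and the part of strain in the differences was not tested. For 1 array, NdpKO;Ptch+/- replicate 2 by its title, the source and genotype labels name an Ndp knockout alone. It was grouped by its title. The labels also give postnatal day 6 for both tumours, although the study describes MBs of symptomatic animals.

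Norrin, the product of Ndp, is a secreted ligand of Frizzled4 on endothelial cells and is needed for vessel growth and barrier function in retina and cerebellum. The question put to the 10 genes was whether their levels differed where Norrin was lost, since poorly perfused tissue switches such genes on. In well-oxygenated cells prolyl hydroxylases, the products of the Egln genes, mark the alpha subunits of hypoxia-inducible factors (HIFs) for degradation through the von Hippel-Lindau protein. When oxygen falls the alpha subunit persists, pairs with Arnt and binds hypoxia response elements, whose core letters are ACGTG or GCGTG. Targets include angiogenic signals, brakes on growth and respiration, glycolytic enzymes, and the hydroxylases themselves.

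The promoters of the 3 genes whose probes had a mean at or above 5, a mark near background, are shown because the response element is the sequence through which HIFs act. The windows are RefSeq sequences of build GRCm38.p6 that run from 250 bases before to 50 bases after the start of transcription, read 5′ to 3′ on the gene's strand. Capitals mark ACGTG and GCGTG on either strand, that is, also CACGT and CACGC, with overlapping matches run together.
Ankrd37 (chr8:45999801-46000100, minus strand): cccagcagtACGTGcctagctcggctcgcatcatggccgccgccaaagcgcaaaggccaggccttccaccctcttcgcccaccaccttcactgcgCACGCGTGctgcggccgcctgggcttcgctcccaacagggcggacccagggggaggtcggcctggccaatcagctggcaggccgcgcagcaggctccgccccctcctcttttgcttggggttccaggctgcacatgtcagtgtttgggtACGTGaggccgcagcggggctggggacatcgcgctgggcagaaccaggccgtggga
Vegfa (chr17:46032328-46032627, minus strand): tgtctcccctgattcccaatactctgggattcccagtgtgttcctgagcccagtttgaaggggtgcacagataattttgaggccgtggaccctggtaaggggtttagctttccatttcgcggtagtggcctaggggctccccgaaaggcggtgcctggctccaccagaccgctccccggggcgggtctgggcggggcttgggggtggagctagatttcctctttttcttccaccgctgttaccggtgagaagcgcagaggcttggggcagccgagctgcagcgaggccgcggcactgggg
Ddit4 (chr10:59951721-59952020, minus strand): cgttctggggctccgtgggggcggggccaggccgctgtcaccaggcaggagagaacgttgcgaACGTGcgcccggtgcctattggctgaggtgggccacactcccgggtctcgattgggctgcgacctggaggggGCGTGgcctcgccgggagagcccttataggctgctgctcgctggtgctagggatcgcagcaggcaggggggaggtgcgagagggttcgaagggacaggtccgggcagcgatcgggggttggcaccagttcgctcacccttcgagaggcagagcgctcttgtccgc
The Ankrd37 window held ACGTG at 2 places and GCGTG at 2, and the Ddit4 window held each once. The Vegfa window held neither, and sequence outside the windows was not searched for any gene. A second Vegfa window, at an internal start (chr17:46025114-46025413), held each once. Of the 10 genes, all but Ndrg1 had a window, 11 windows altogether. ACGTG stood in 7 of these windows and either motif in 9. Of all 32851 promoter windows of 300 bases, 19.6% held ACGTG, 32.4% held GCGTG and 43.8% held either.

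Only a few of the 10 genes gave a signal that these arrays could measure. Values are log2 levels, and the lowest level on an array was 4.09, so 5 was used as a mark near background. Vegfa, Ankrd37 and Ddit4, that is, 3 of the 10, had a mean at or above 5. Egln1 reached 5 on 8 of the 18 arrays and Ndrg1 on 7. Adm, Bnip3, Egln3, Car9 and Pdk1, the other 5, lay below 5 on all 18 arrays at every probe. A gene at this level is not shown to be silent, and its changes could not be read.

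**Figure D1:**
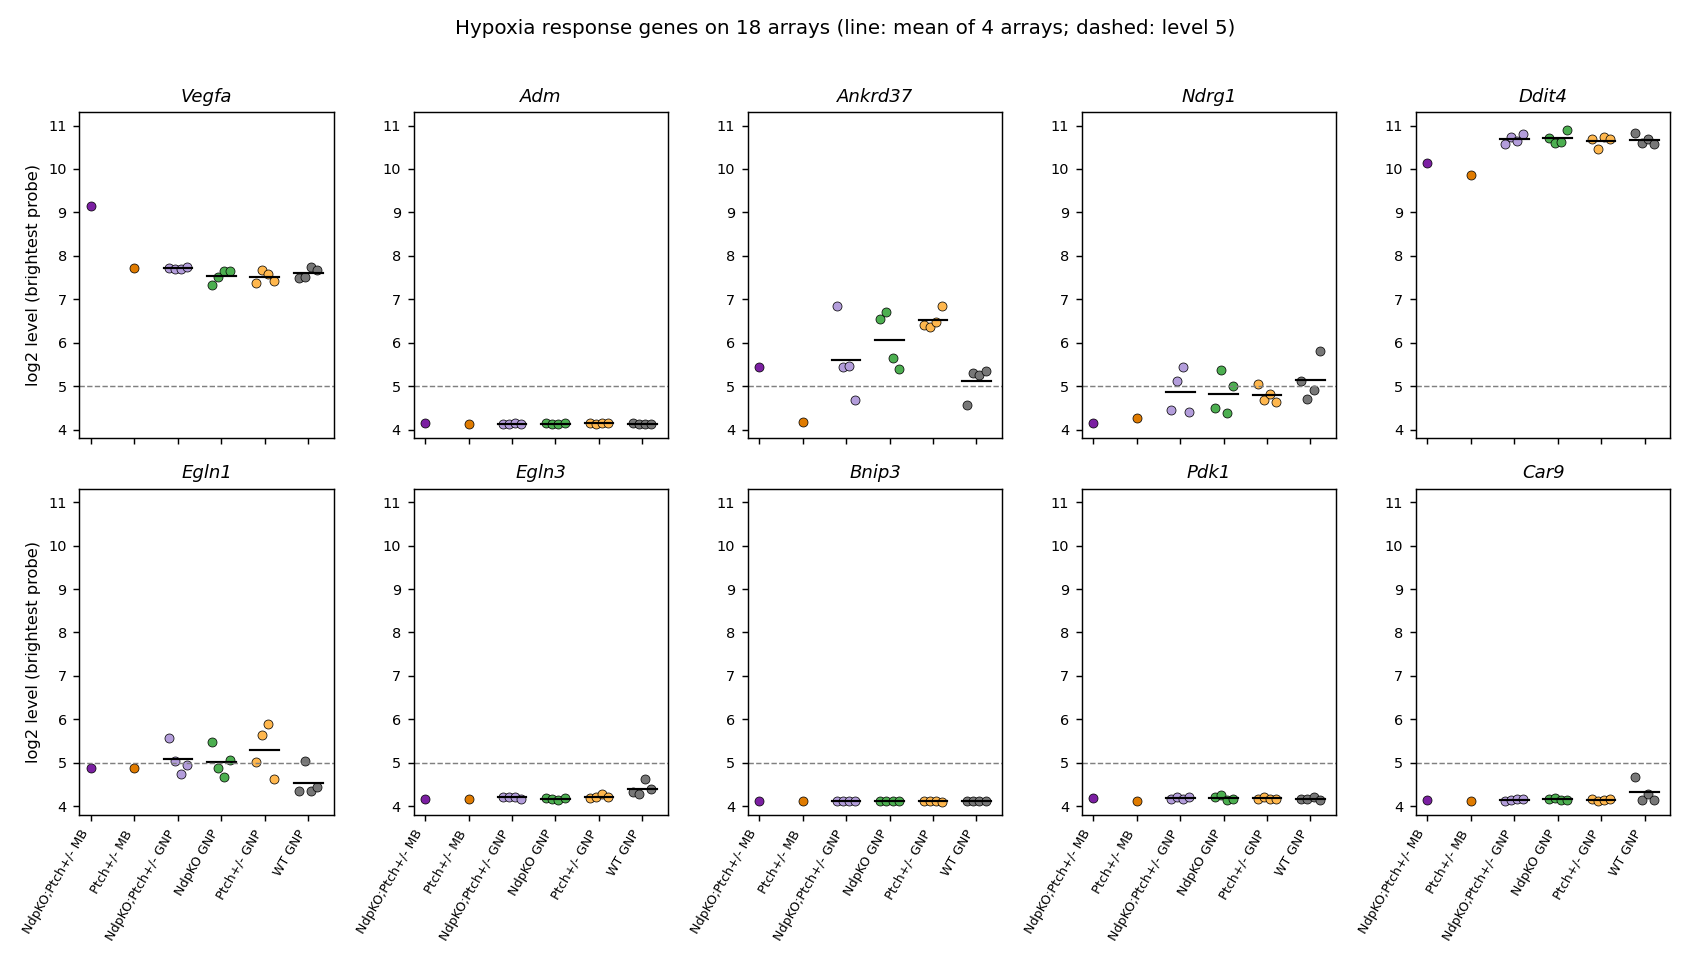
Log2 level of the brightest probe of each of the 10 genes (vertical axis) on the 18 arrays, by group (horizontal axis). Points are arrays, lines are means of 4 arrays and the dashed line is level 5. Vegfa at 9.14 in the NdpKO;Ptch+/- tumour stands above the 16 GNP arrays, which lie between 7.32 and 7.74, and 5 genes stay below the dashed line throughout.

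Of the angiogenic signals, Vegfa was measured well and hardly varied among GNPs. Vegfa (ILMN_2484527) encodes the secreted growth factor that draws new vessels towards hypoxic tissue. Its log2 level was 7.72, 7.69, 7.69 and 7.74 in NdpKO;Ptch+/- GNPs, 7.32, 7.51, 7.66 and 7.65 in NdpKO GNPs, 7.38, 7.67, 7.58 and 7.43 in Ptch+/- GNPs, and 7.49, 7.51, 7.74 and 7.68 in WT GNPs. The NdpKO;Ptch+/- arrays were the highest on average and the closest together, and they lay above every Ptch+/- and every NdpKO array but within the range of WT. The group means were 7.71 ± 0.02 in NdpKO;Ptch+/-, 7.53 ± 0.16 in NdpKO, 7.52 ± 0.13 in Ptch+/- and 7.6 ± 0.13 in WT GNPs (SD, n = 4 each). NdpKO, Ptch+/- and WT overlapped.

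Adm encodes adrenomedullin, a vasodilator peptide that also acts on endothelial cells. Its single probe stayed between 4.12 and 4.15 on all 18 arrays, so it gave no reading. The 2 further Vegfa probes were near background in GNPs. Of these, ILMN_3045723 lay between 4.10 and 4.12 on every array.

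Ankrd37, an ankyrin repeat protein known in human cells as a direct HIF target, varied the most of the 10 genes. Its level was 6.85, 5.45, 5.46 and 4.68 in NdpKO;Ptch+/- GNPs, 6.54, 6.71, 5.64 and 5.39 in NdpKO GNPs, 6.4, 6.36, 6.47 and 6.85 in Ptch+/- GNPs, and 4.56, 5.30, 5.26 and 5.35 in WT GNPs. The Ptch+/- arrays were uniformly high and the WT arrays uniformly low, while NdpKO;Ptch+/- replicate 1 sat with the Ptch+/- arrays and the rest of its group lay between 4.68 and 5.46. The means were 5.61 ± 0.90 in NdpKO;Ptch+/-, 6.07 ± 0.65 in NdpKO, 6.52 ± 0.22 in Ptch+/- and 5.12 ± 0.38 in WT GNPs (SD, n = 4 each). From Ptch+/- down through NdpKO and NdpKO;Ptch+/- to WT, neighbours overlapped, but neither NdpKO nor Ptch+/- overlapped WT.

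Ddit4, which restrains mTORC1 under low oxygen, energy stress and glucocorticoids, was measured well and had a flat profile. It read 10.57, 10.73, 10.64 and 10.80 in NdpKO;Ptch+/- GNPs, 10.71, 10.60, 10.61 and 10.90 in NdpKO GNPs, 10.68, 10.47, 10.73 and 10.69 in Ptch+/- GNPs, and 10.82, 10.60, 10.70 and 10.57 in WT GNPs. All 4 genotypes overlapped.

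Ndrg1, a stress-responsive protein of differentiating cells, straddled the mark. It read 4.46, 5.12, 5.43 and 4.4 in NdpKO;Ptch+/- GNPs, 4.50, 5.36, 4.38 and 5.01 in NdpKO GNPs, 5.05, 4.69, 4.81 and 4.63 in Ptch+/- GNPs, and 5.11, 4.70, 4.92 and 5.80 in WT GNPs, with all groups overlapping.

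Of the prolyl hydroxylases, Egln1 encodes the main oxygen sensor of the HIF system. It read 5.57, 5.05, 4.75 and 4.95 in NdpKO;Ptch+/- GNPs, 5.48, 4.89, 4.67 and 5.06 in NdpKO GNPs, 5.02, 5.63, 5.89 and 4.63 in Ptch+/- GNPs, and 4.36, 5.03, 4.35 and 4.43 in WT GNPs. The WT arrays were lowest on average, with replicate 2 inside the range of each mutant. Egln3, a hydroxylase strongly induced by HIF, lay between 4.15 and 4.62, with its highest value in a WT array.

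The metabolic targets gave no signal. Bnip3, a mitochondrial protein that promotes mitophagy, lay between 4.10 and 4.13. Pdk1, the kinase that keeps pyruvate out of mitochondria, lay between 4.13 and 4.25. Car9, a membrane carbonic anhydrase often used as a hypoxia marker in tumours, lay between 4.12 and 4.68. Its 4.68 came from a WT array, and the tumours were at 4.14 in NdpKO;Ptch+/- and 4.12 in Ptch+/-.

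Facts of the whole series bear on these values. Ptch1 checked the GNP labels: it averaged 8.06 ± 0.19 in NdpKO;Ptch+/-, 8.8 ± 0.15 in NdpKO, 7.83 ± 0.14 in Ptch+/- and 8.63 ± 0.06 in WT GNPs (SD, n = 4 each). NdpKO;Ptch+/- replicate 2, the array with the label conflict, read 7.8 for Ptch1, below all NdpKO arrays at 8.65 to 8.97, so its level goes with its title. Ptch1 did not check the tumour labels: it read 7.01 in the NdpKO;Ptch+/- tumour and 8.69 in the Ptch+/- tumour, the latter within the NdpKO range. The probe for Ndp lay between 4.10 and 4.13 on all 18 arrays and checked nothing. Along the first principal component of the GNPs, which held 43.6% of the variance of 1500 probes, all Ptch+/- arrays, NdpKO replicates 1 to 3 and NdpKO;Ptch+/- replicate 1 had positive scores, and the WT arrays, NdpKO replicate 4 and NdpKO;Ptch+/- replicates 2 to 4 had negative ones. Ankrd37 followed this split, which cuts across genotypes: it lay between 5.64 and 6.85 on the arrays with positive scores and between 4.56 and 5.46 on the others. Of 14 measured GNP markers 10 had a mean at or above 5, and Atoh1, Pax6, Mycn and Gli1 did not. Endothelial, glial, oligodendrocyte and erythroid genes were also detected. In such bulk RNA, fewer cells of a type and less RNA per cell cannot be told apart.

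Loss of Norrin in Ptch+/- GNPs was the first comparison. In NdpKO;Ptch+/- against Ptch+/- GNPs, 0 of the 10 genes passed the test (limma, Benjamini-Hochberg adjusted p below 0.05 over all probes), against 0.0155% of all probes. At an unadjusted p below 0.05 there were 3 of 10, Vegfa, Adm and Ankrd37, against 8.67% of all probes. Vegfa was 0.19 ± 0.08 higher (log2 difference ± SE, 95% interval 0.01 to 0.38, adjusted p = 0.55), and its groups did not overlap, as for 4.95% of all probes. Ankrd37 differed by -0.91 ± 0.41 (interval -1.80 to -0.02, adjusted p = 0.56). Ddit4 differed by 0.04 ± 0.08 (interval -0.13 to 0.22) and Egln1 by -0.21 ± 0.28 (interval -0.82 to 0.40). Without NdpKO;Ptch+/- replicate 1 and NdpKO replicate 4, the 2 arrays that sat apart from their groups, the Ankrd37 difference was -1.32 ± 0.30 (adjusted p = 0.053) and that of Vegfa 0.19 ± 0.09. This setting was chosen after seeing the data. NdpKO;Ptch+/- replicate 1 had the highest Ankrd37 of its group, 6.85, so leaving it out had to make that difference more negative.

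With Norrin alone lost, the Ankrd37 difference had the other sign, and it was called in neither comparison. In NdpKO against WT GNPs, 0 of the 10 genes passed in limma, against 0.307% of all probes, and 2 of 10 had an unadjusted p below 0.05, Ankrd37 and Egln3, against 10.9% of all probes. Ankrd37 differed by 0.95 ± 0.41 (95% interval 0.06 to 1.84, adjusted p = 0.42), and its groups did not overlap, as for 5.47% of all probes. Vegfa differed by -0.07 ± 0.08 (interval -0.25 to 0.11) and Ddit4 by 0.03 ± 0.08 (interval -0.14 to 0.21). Egln1 averaged 5.02 in NdpKO and 4.54 in WT GNPs, at the mark or below it. Egln3 averaged 4.17 in NdpKO and 4.4 in WT GNPs, both near background.

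The interaction, which asks whether the effect of Ndp loss differed between Ptch+/- and WT animals, was called for 0 of the 10 genes in limma, against 0.495% of all probes. At an unadjusted p below 0.05 there were 3 of 10, Vegfa, Ankrd37 and Egln3, against 13.3% of all probes. For Ankrd37 it was -1.86 ± 0.58 (95% interval -3.12 to -0.60, adjusted p = 0.16). Over the alternatives other than single left-out arrays, it ran between -2.50 and -1.67 with adjusted p between 0.0064 and 0.35. It passed without NdpKO;Ptch+/- replicate 1 alone (-2.27, adjusted p = 0.027) and without both arrays that sat apart (-2.50 ± 0.42, adjusted p = 0.0064), but not when the array with the label conflict, whose Ptch1 level goes with its title, was counted as NdpKO (-1.68 ± 0.61, adjusted p = 0.35). The setting without both arrays was chosen after seeing the data. NdpKO;Ptch+/- replicate 1 had the highest Ankrd37 of its group, 6.85, and NdpKO replicate 4 the lowest of its group, 5.39. Leaving either out had to make the interaction more negative, so these passes add no support. For Vegfa the interaction was 0.26 ± 0.12 (interval 0.01 to 0.52, adjusted p = 0.36).

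**Figure D2:**
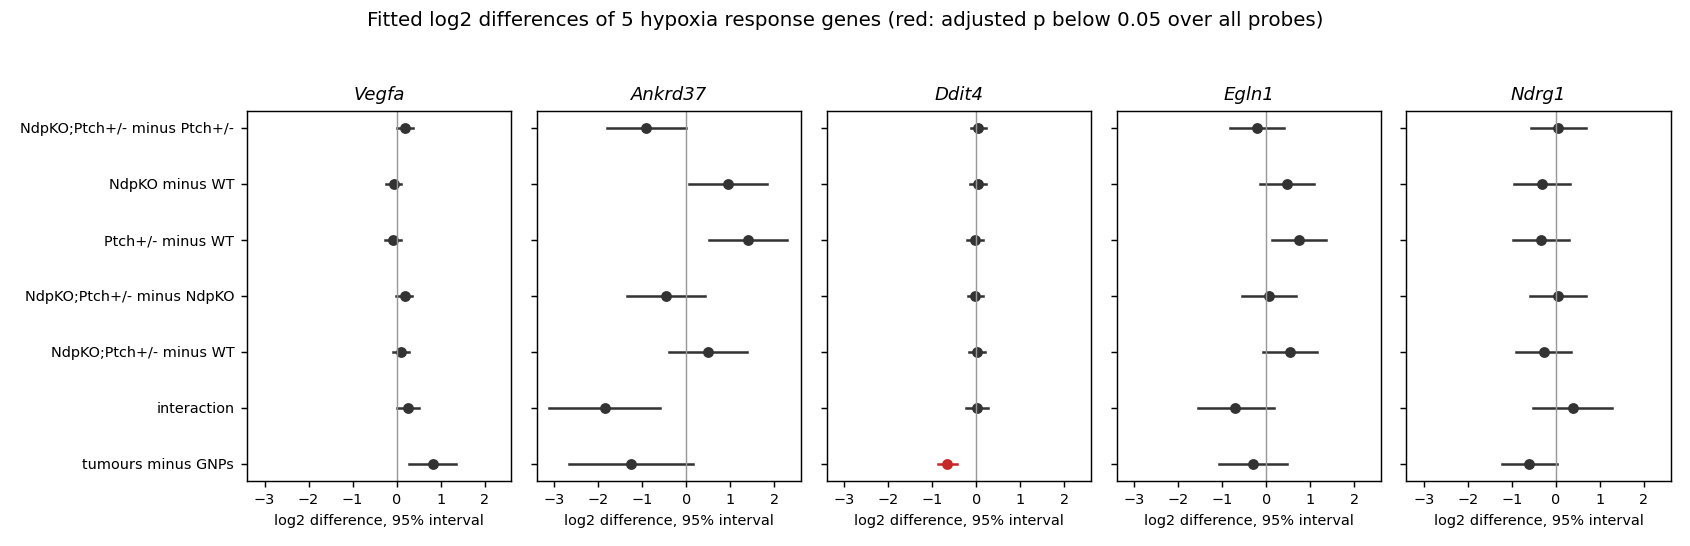
Log2 differences of the 5 genes that reached level 5 (horizontal axis, points with 95% intervals) for each comparison (vertical axis), from limma. The red point is the only difference here that passed over all probes, Ddit4 at -0.66 in tumours against GNPs. The intervals of Ddit4 and Vegfa among GNPs are narrow and those of Ankrd37 wide.

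With Ndp intact, Ankrd37 levels were higher in Ptch+/- than in WT GNPs on every array, but the difference was not called. In Ptch+/- against WT GNPs, 0 of the 10 genes passed in limma, against 1.09% of all probes, and 3 of 10 had an unadjusted p below 0.05, Ankrd37, Egln3 and Egln1, against 13.2% of all probes. Ankrd37 differed by 1.4 ± 0.41 (95% interval 0.51 to 2.29, adjusted p = 0.13), a 2.64-fold difference whose groups did not overlap, as for 9.28% of all probes. Its adjusted p ran between 0.023 and 0.20 over the alternatives other than single left-out arrays and between 0.18 and 0.29 with any 1 array of these groups left out. It passed when only these 8 arrays were fitted (adjusted p = 0.035) and without the 2 arrays that sat apart (adjusted p = 0.023). Those 2 arrays belong to neither group, so leaving them out changed only the estimate of spread and not the difference. Egln1 averaged 5.29 in Ptch+/- and 4.54 in WT GNPs, at least 1.23-fold higher (adjusted p = 0.25). Its probe ILMN_2617087, which also reached 5 on some arrays, averaged 4.88 in Ptch+/- and 4.86 in WT GNPs. Vegfa differed by -0.09 ± 0.08 (interval -0.27 to 0.10) and Ddit4 by -0.03 ± 0.08 (interval -0.21 to 0.15).

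The remaining comparisons share their arrays with the ones above. In NdpKO;Ptch+/- against NdpKO GNPs, 0 of the 10 genes passed in limma, against 0.00442% of all probes. At an unadjusted p below 0.05 there were 0 of 10, against 5.6%. Vegfa differed by 0.18 ± 0.08 (adjusted p = 0.87) without overlap, as for 2.56% of all probes, and Ankrd37 by -0.46 ± 0.41. In NdpKO;Ptch+/- against WT GNPs, 0 of the 10 genes passed in limma, against 0.0508% of all probes. At an unadjusted p below 0.05 there was 1 of 10, against 6.95%. This was Egln3, near background in both, which did not overlap, as for 3.63% of all probes. Vegfa differed by 0.11 ± 0.08 and Ankrd37 by 0.49 ± 0.41.

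Marker levels of other cells were set beside Ankrd37. Of 20 endothelial and 14 microglia and leukocyte markers 0 were called in any GNP comparison (limma). In Ptch+/- against WT GNPs 4 and 8 of them had an unadjusted p below 0.05, against 13.2% of all probes. These counts were 7 and 0 in NdpKO;Ptch+/- against Ptch+/- GNPs (8.67%), 6 and 8 in NdpKO against WT GNPs (10.9%) and 11 and 3 in the interaction (13.3%). They were 5 and 0 in NdpKO;Ptch+/- against NdpKO GNPs (5.6%) and 2 and 8 in NdpKO;Ptch+/- against WT GNPs (6.95%). Of 16 astrocyte and Bergmann glia markers 1 fell in NdpKO and 1 in Ptch+/- against WT GNPs, against 0.307% and 1.09% of all probes called. At an unadjusted p below 0.05 there were 12 of 16 in each, against 10.9% and 13.2%. Of 14 GNP markers 3 rose in Ptch+/- against WT GNPs, against the same 1.09%. In the interaction 1 of the 16 and 3 of the 14 were called, against 0.495%. There 13 of the 16 and 8 of the 14 had an unadjusted p below 0.05, against 13.3%. Of the 14 GNP markers 8 did in Ptch+/- against WT GNPs (13.2%) and 6 in NdpKO against WT GNPs (10.9%). The glial and GNP counts were 5 and 4 in NdpKO;Ptch+/- against Ptch+/- GNPs (8.67%). They were 7 and 2 in NdpKO;Ptch+/- against NdpKO GNPs (5.6%) and 5 and 2 against WT GNPs (6.95%). The summed log2 level of 20 endothelial markers was 12.46 to 13.62 in NdpKO;Ptch+/-, 12.24 to 13.19 in NdpKO, 12.26 to 12.84 in Ptch+/- and 12.94 to 14.01 in WT GNPs, and Tie1, Kdr, Slco1a4, Abcb1a and Clec14a were near background. That of 16 astrocyte and Bergmann glia markers was 13.88 to 14.22, 13.35 to 14.05, 13.43 to 13.74 and 14.16 to 14.50 in the same order of genotypes, with Fabp7, S100b and Glul near background. That of 14 microglia and leukocyte markers was 9.40 to 10.06, 9.16 to 9.79, 9.40 to 10.12 and 10.11 to 10.89, with Ctss, Ptprc and Itgam near background. That of 14 GNP markers was 14.67 to 15.06, 14.69 to 15.12, 15.03 to 15.17 and 14.65 to 14.76. On the 7 arrays with Ankrd37 above 6 the endothelial sum was 12.24 to 12.84 and the GNP sum 14.95 to 15.17. On the other 9 they were 12.40 to 14.01 and 14.65 to 15.11. Both overlaps came from NdpKO replicate 3, with Ankrd37 at 5.64 and sums of 12.40 and 15.11. Split by the sign of the first component, neither sum overlapped. Arrays with positive scores had endothelial sums of 12.24 to 12.84 and GNP sums of 14.95 to 15.17. Those with negative scores had 12.94 to 14.01 and 14.65 to 14.84. Their part in the Ankrd37 differences was not tested.

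**Figure D3:**
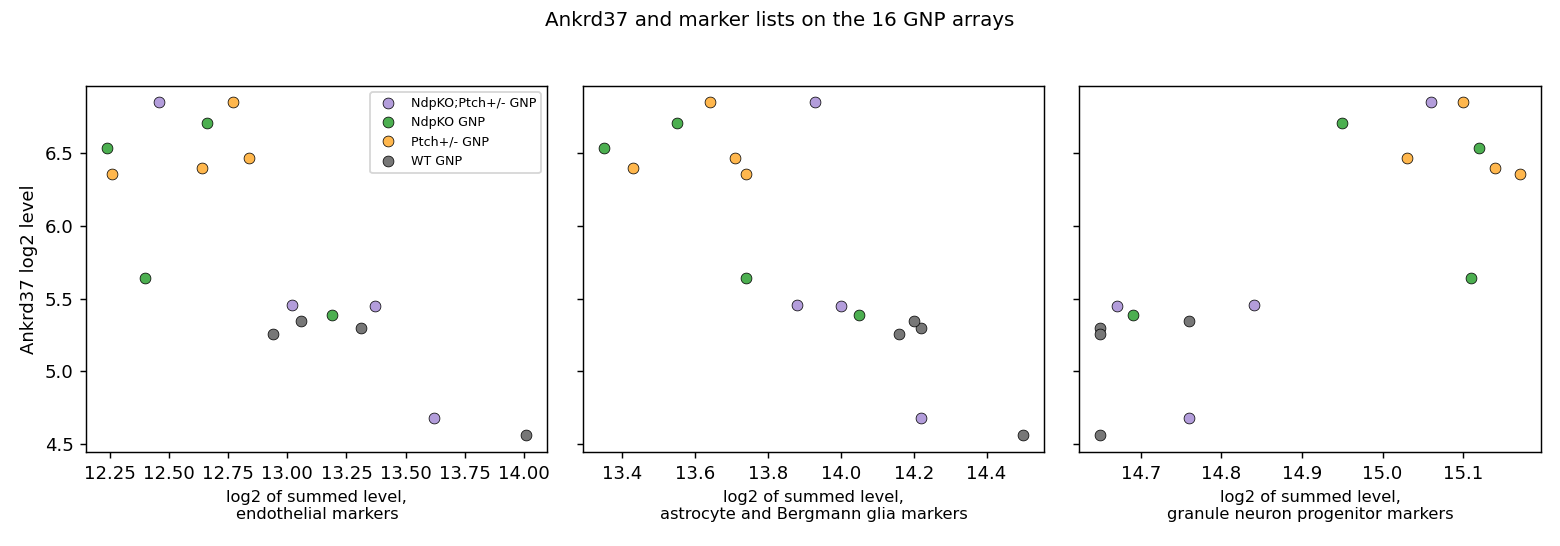
Log2 level of Ankrd37 (vertical axis) against the log2 summed level of 3 marker lists (horizontal axes) on the 16 GNP arrays, coloured by genotype. The Ptch+/- arrays, at 6.36 to 6.85, lie at endothelial sums of 12.26 to 12.84, and the WT array with the lowest Ankrd37, 4.56, has the highest endothelial sum, 14.01.

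Vegfa, Ddit4 and Ankrd37, the last of which lay below 5 on 2 of the 16 GNP arrays, were also compared with each other. Pearson's r, given as a description over arrays that share their genotypes, was -0.40 between Vegfa and Ankrd37, -0.09 between Vegfa and Ddit4 and -0.45 between Ankrd37 and Ddit4. Of 6911 genes compared over the 16 arrays, those most like Ankrd37 were Ncl, Plekha6 and Gli2, each with r of 0.93. Those most like Vegfa were Slc30a3 (0.83), Pcsk6 (0.82) and Cacng5 (0.81), and those most like Ddit4 were Nras (0.80), Orai1 (0.74) and Plxnd1 (0.73).

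The machinery that controls these genes was described from a list of 12 oxygen-sensing genes, of which 8 had a mean at or above 5. Hif1an, the asparaginyl hydroxylase that blocks the transactivation domain of HIF, was the 1 gene of the list that passed between GNP groups. Its level was 6.60, 6.49, 6.52 and 6.52 in Ptch+/- GNPs, against 7.57, 7.15, 7.12 and 7.30 in WT GNPs. The Ptch+/- arrays lay below all others in the series. It fell by 0.75 ± 0.09 (log2 difference ± SE, adjusted p = 0.0043), and lay between 6.92 and 7.06 in NdpKO;Ptch+/- and between 7.07 and 7.39 in NdpKO GNPs. The interaction for Hif1an was 0.53 ± 0.13 (adjusted p = 0.093). Its 2 other probes averaged 4.13 and 4.11 and gave no reading.

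The other sensing genes were not called between GNP groups. Hif1a, the oxygen-regulated subunit, averaged 4.45 in NdpKO;Ptch+/-, 4.81 in NdpKO, 5.11 in Ptch+/- and 4.57 in WT GNPs, close to background, and Epas1, the related alpha subunit best known from endothelium, averaged between 4.14 and 4.16. Arnt, their constant partner, averaged 8.18 ± 0.17, 8.08 ± 0.19, 7.92 ± 0.11 and 7.81 ± 0.17 in the same order (SD, n = 4 each). Vhl averaged 5.76, 5.29, 5.18 and 5.02, and Egln2, another prolyl hydroxylase, 5.04, 5.17, 5.03 and 5.34. None of these 5 passed in any GNP comparison (limma). In NdpKO;Ptch+/- against Ptch+/- GNPs 5 of the 12 listed genes had an unadjusted p below 0.05, Hif1a, Arnt, Vhl, Hif1an and Cited2, against 8.67% of all probes. In the other GNP comparisons between 1 and 3 did, against 5.6% to 13.3% of all probes.

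**Figure D4:**
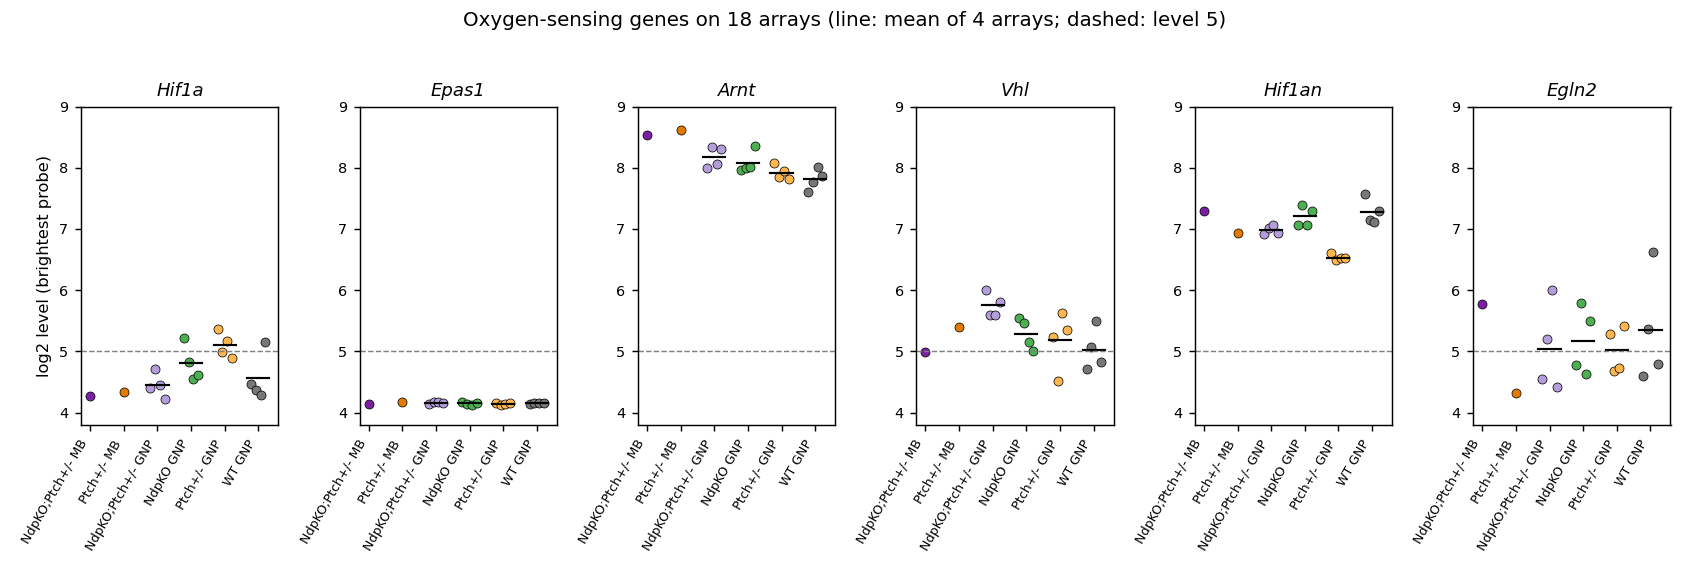
Log2 level of the brightest probe of 6 oxygen-sensing genes (vertical axis) on the 18 arrays, by group (horizontal axis). Points are arrays, lines are means of 4 arrays and the dashed line is level 5. Hif1an lies between 6.49 and 6.60 in Ptch+/- GNPs, below every other array.

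Of 32 measured further hypoxia targets, 0 passed in NdpKO;Ptch+/- against Ptch+/- GNPs (limma), against 0.0155% of all probes, and 9 had an unadjusted p below 0.05, against 8.67%. That unadjusted count was 13 in Ptch+/- against WT GNPs (13.2% of all probes), 12 in the interaction (13.3%) and 7 in NdpKO against WT GNPs (10.9%). In NdpKO;Ptch+/- against NdpKO and against WT GNPs it was 4 and 6 (5.6% and 6.95%). Of the 32 genes, 13 lay below 5 on all 18 arrays at the brightest probe. Of 13 glycolytic targets 0 passed in any GNP comparison (limma). Between 0 and 2 had an unadjusted p below 0.05, against 5.6% to 13.3% of all probes. Median differences over these 13 lay between -0.05 and 0.12 in the comparisons between GNP genotypes, beside 0 over all probes. Bnip3l, a mitophagy receptor related to Bnip3, was bright and flat, at 11.13 ± 0.12 in NdpKO;Ptch+/-, 11.24 ± 0.11 in NdpKO, 11.10 ± 0.07 in Ptch+/- and 11.11 ± 0.12 in WT GNPs (SD, n = 4 each). Ldha, which makes lactate, averaged between 11.62 and 11.77 in the 4 genotypes, and Pgk1, a glycolytic kinase, between 10.15 and 10.26. Slc2a1, the glucose transporter of barrier endothelium and of hypoxic cells, averaged 9.93, 9.57, 9.62 and 10.03.

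In Ptch+/- against WT GNPs 2 of the 32 further targets passed, against 1.09% of all probes. Mt1, a metallothionein, read 10.79, 10.62, 11 and 10.94 in Ptch+/- GNPs, against 12.13, 11.63, 11.65 and 11.64 in WT GNPs, without overlap. It fell by 0.93 ± 0.17 (adjusted p = 0.029), a call that was kept without WT replicate 4 (adjusted p = 0.041) and lost without any other of these 8 arrays (up to 0.084). Narf averaged 5.18 in Ptch+/- and 4.34 in WT GNPs, at least 1.13-fold higher (adjusted p = 0.029). That call was kept without Ptch+/- replicate 4 or WT replicate 4 and lost without any other of these arrays (up to 0.085). P4ha2, a collagen hydroxylase, passed in NdpKO against WT GNPs but averaged 4.14 in NdpKO and 4.22 in WT GNPs, both near background, and its relative P4ha1 lay between 4.2 and 4.4 on all 18 arrays. For Mt1 the interaction also passed, at 1.24 ± 0.24 (adjusted p = 0.048, between 0.017 and 0.11 with any 1 array left out).

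The VEGF and adrenomedullin ligands and receptors gave 0 calls among 12 measured genes in every GNP comparison (limma). Between 0 and 4 had an unadjusted p below 0.05, against 5.6% to 13.3% of all probes. Flt1, a VEGF receptor of endothelial cells, averaged 8.02 ± 0.63 in NdpKO;Ptch+/-, 7.64 ± 0.44 in NdpKO, 7.66 ± 0.38 in Ptch+/- and 8.40 ± 0.57 in WT GNPs (SD, n = 4 each), and it is also in the endothelial list. Kdr encodes the main VEGF receptor, Pgf placental growth factor and Calcrl the adrenomedullin receptor. They averaged 4.19, 4.15 and 4.10 over the 18 arrays and gave no reading.

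In the tumours Ddit4 was lower than in GNPs, and Vegfa was high in 1 of the 2. Vegfa read 9.14 in the NdpKO;Ptch+/- tumour and 7.72 in the Ptch+/- tumour, against 7.69 to 7.74 in NdpKO;Ptch+/- GNPs and 7.38 to 7.67 in Ptch+/- GNPs. The NdpKO;Ptch+/- tumour was therefore above all 16 GNP arrays, and the Ptch+/- tumour was inside their range. Between the tumours the difference was 1.42, or 2.67-fold, with no replicate check. A second Vegfa probe (ILMN_3121255) read 5.11 in the NdpKO;Ptch+/- tumour and 4.34 in the Ptch+/- tumour, and the first was the highest of its 18 values. Ankrd37 read 5.44 and 4.17 in the same order, at least 1.36-fold higher in the NdpKO;Ptch+/- tumour. These were 2 of the 10 genes at a log2 difference of 1 or more, against 3.52% of all probes. Ddit4 read 10.14 and 9.86, Egln1 4.88 and 4.89, and Ndrg1 4.16 and 4.26.

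Beside the Vegfa difference, the endothelial sum was 11.23 in the NdpKO;Ptch+/- tumour and 10.74 in the Ptch+/- tumour, the mural sum 10.24 and 8.71, the astrocyte and Bergmann glia sum 14.18 and 15.05, and the microglia and leukocyte sum 12.16 and 13.16. Their part in the difference was not tested.

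Tumours were also tested against the 8 GNP arrays of their genotypes, with genotype as a covariate. Of the 10 genes 1 passed, Ddit4, against 14.7% of all probes (6.06% lower), and 2 had an unadjusted p below 0.05, Vegfa and Ddit4, against 25.3%. Ddit4 fell by 0.66 ± 0.09, 1.58-fold (95% interval -0.86 to -0.45, adjusted p = 0.0017), and both tumours lay below all 16 GNP arrays. With any 1 array left out, the Ddit4 difference lay between -0.78 and -0.54. Without either tumour only 1 remained, so no spread between tumours entered those fits. Vegfa differed by 0.82 ± 0.23 (interval 0.28 to 1.36, adjusted p = 0.055). This rested on the NdpKO;Ptch+/- tumour: the value was 0.20 without it and 1.43 without the Ptch+/- tumour. Ankrd37 averaged 4.8 in tumours and 6.07 in these GNPs, at least 2.09-fold lower (adjusted p = 0.25). Ndrg1 averaged 4.21 in tumours and 4.82 in these GNPs, both near background, and did not overlap, as for 23.1% of all probes.

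Other groups moved in the same comparison, in which 8.61% of all probes were called higher and 6.06% lower. Of 15 immediate-early and heat shock genes 12 fell. Of 17 integrated stress response genes 4 fell and 2 rose, and of 8 glucocorticoid targets 2 fell. Of 14 microglia and leukocyte markers 11 rose, of 20 endothelial markers 6 fell, of 11 oligodendrocyte markers 7 fell and 2 rose, and of 16 astrocyte and Bergmann glia markers 6 rose and 3 fell. The GNPs were dissociated and fractionated and the methods describe no such step for the tumours, so this handling and tissue cannot be told apart.

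**Figure D5:**
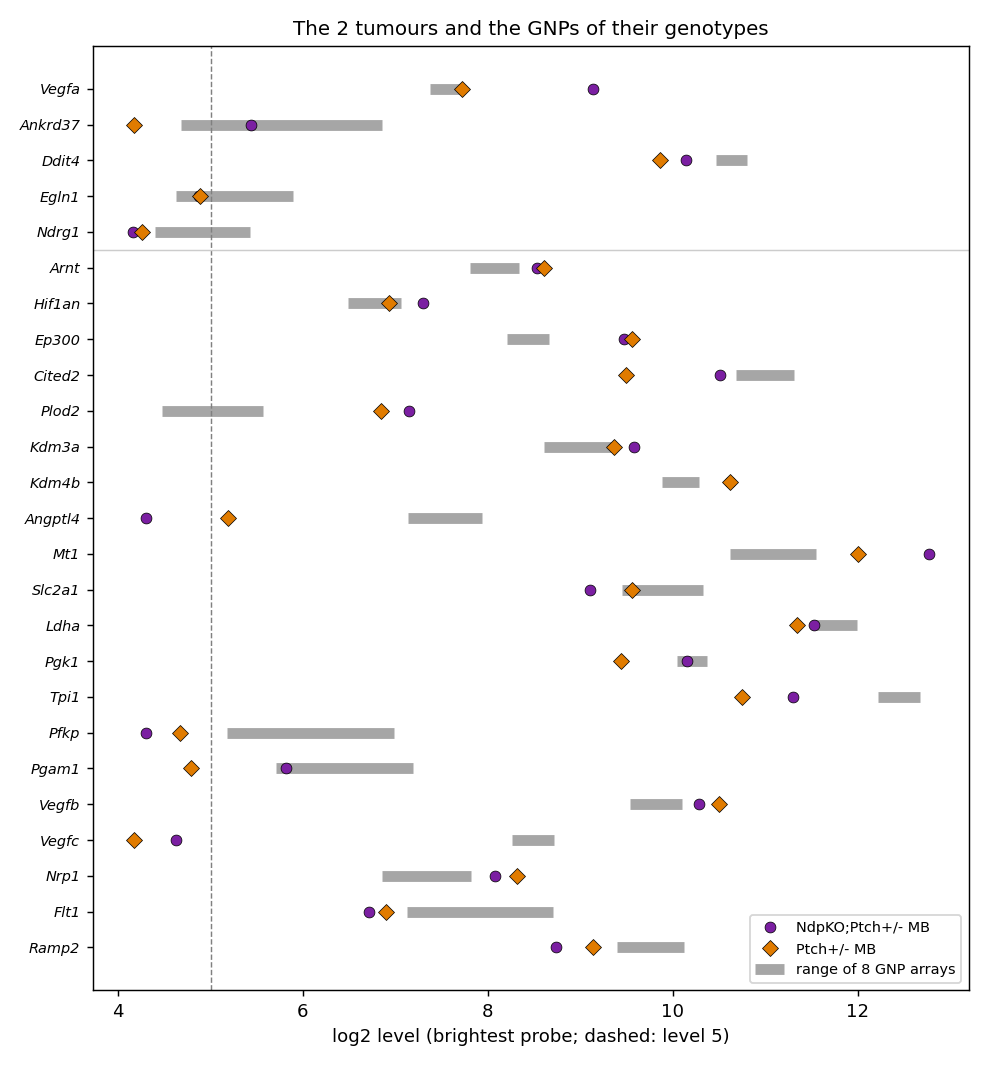
Log2 level (horizontal axis) of 5 hypoxia response genes (above the thin line) and 20 other genes of the pathway (vertical axis) in the 2 tumours, with the range of the 8 GNP arrays of their genotypes as grey bars. Where 1 marker hides the other the levels agree within 0.01, as for Kdm4b at 10.62 and Egln1. Ddit4 lies left of its bar in both tumours and Vegfa right of it at 9.14 in the NdpKO;Ptch+/- tumour.

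The rest of the pathway moved in both directions in tumours against these GNPs, beside the 14.7% of all probes called. Of 12 oxygen-sensing genes 3 rose and 1 fell: Arnt rose by 0.52 ± 0.12, Hif1an by 0.36 ± 0.04 and Ep300, a HIF coactivator, by 1.12 ± 0.13, while Cited2, which competes with HIF for that coactivator, fell by 0.93 ± 0.17. Of 32 further targets 4 rose and 1 fell. Plod2, a collagen lysyl hydroxylase, read 7.15 in the NdpKO;Ptch+/- tumour and 6.84 in the Ptch+/- tumour, at least 4.00-fold above the GNPs. Mt1 rose by 1.30 ± 0.13, and the histone demethylases Kdm3a and Kdm4b by 0.58 ± 0.11 and 0.53 ± 0.09. Angptl4, a secreted inhibitor of lipoprotein lipase, read 4.30 and 5.19 in the tumours, in the same order, and averaged 7.56 in the GNPs, at least 5.90-fold lower.

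Of 13 glycolytic targets 0 rose and 3 fell, against 6.06% of all probes called lower: Tpi1 by 1.45 ± 0.16 and Pgam1 by 1.12 ± 0.25 on the log2 scale, and Pfkp at least 2.47-fold. The list's median was -0.21, beside -0.001 over all probes. Slc2a1 differed by -0.44 ± 0.23, Ldha by -0.22 ± 0.12 and Pgk1 by -0.40 ± 0.12, and none of these passed. Among VEGF and adrenomedullin ligands and receptors 2 of 12 rose and 2 fell. Vegfb and the coreceptor Nrp1 rose by 0.56 ± 0.11 and 0.75 ± 0.20. Vegfc, a ligand of lymphatic endothelium, read 4.63 in the NdpKO;Ptch+/- tumour and 4.17 in the Ptch+/- tumour and averaged 8.47 in the GNPs, at least 11.1-fold lower. Ramp2, which makes the calcitonin-receptor-like protein an adrenomedullin receptor, fell by 0.77 ± 0.21. Arnt, Cited2, Kdm3a, Pgam1, Vegfb and Nrp1 were not called without the Ptch+/- tumour, nor Kdm4b, Pgam1, Vegfb and Ramp2 without the NdpKO;Ptch+/- tumour, nor Pfkp without either, and single GNP arrays also ended the calls of Pfkp, Nrp1 and Ramp2. With 1 tumour left, the fit took its spread from the GNP arrays alone. Bnip3l, at 11.21 in the NdpKO;Ptch+/- tumour and 11.02 in the Ptch+/- tumour, differed by 0.00 ± 0.08 (95% interval -0.18 to 0.17).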

How the data were processed

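Gene expression had been measured on 18 arrays. The deposited values are log2 levels that the authors made from BeadStudio output with neqc of limma, which corrects background and quantile-normalizes. All arrays therefore share a median of 4.13, and a shift of all genes together would not be visible. No further normalization was applied, no column lacked a sample, and the number of arrays limits precision. Symbols came from the array's annotation, in which 34885 probes had 1 symbol, 18 several and 10378 none.

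The 10 genes, the gene lists and the mark of 5 were chosen with earlier results of these data known. Where 1 group lay below 5 the fold was computed against 5 and given as at least, and where both did none was given. Linear models with 1 mean per genotype were fitted to the 16 GNP arrays with limma 3.58.1 (R 4.3.3, empirical Bayes moderation at default settings). Tumours were fitted with the 8 GNP arrays of their genotypes, and their difference from each other was not tested. All tests were two-sided, with Benjamini-Hochberg adjustment over 45281 probes and calls below 0.05. The text names the 10 genes, 6 oxygen-sensing genes, 10 preset targets and, from the target and VEGF lists, genes that were called (the 5 largest where there were more). Other genes are named as examples of their lists, after their values were seen. No 2 arrays were identical. The study gives each GNP array as a separate animal. In simulated data for Ptch+/- against WT GNPs, 67% of probes changed by 1 and 97% of those changed by 2 on the log2 scale were recovered, with 6 others called. Alternatives were another choice of probe, filter, floor, normalization, moderation, array weights, labels, block, samples in the fit, and each array left out. Where the array left out was a tumour, 1 tumour remained and no spread between tumours entered the fit. Calls in such fits cannot show what holds across tumours.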

Additional observations from a re-analysis of the deposited data

Results flagged for a closer look

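The level of an array was set against the other 3 of its genotype for the 5 hypoxia response genes that reached 5 and for Hif1an, Mt1 and Narf, in 32 groups. A distance test of this kind picks out about 1 group in 20 by chance. Ankrd37 in WT replicate 1 was 4.56, below the others at 5.26 to 5.35. Egln1 in WT replicate 2 was 5.03, above the others at 4.35 to 4.43. Mt1 in WT replicate 1 was 12.13, above the others at 11.63 to 11.65. The effect of Ndp loss on Mt1 differed between Ptch+/- and WT animals by 1.24 ± 0.24 on the log2 scale (limma, adjusted p = 0.048). Over the alternatives other than single left-out arrays this adjusted p ran between 0.01 and 0.11.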

How the results depend on the processing

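Of the 10 genes, the number called stayed at 0 under every alternative in NdpKO;Ptch+/- against Ptch+/-, against NdpKO and against WT GNPs. In NdpKO against WT GNPs it was 1 with trend and robust moderation, Egln3 near background. In Ptch+/- against WT GNPs it was 1, Ankrd37, with probes of a mean of at least 5, with values under 5 raised to 5 (probes above 5 on at least 4 arrays), with trend and robust moderation, with the groups compared only, and without NdpKO;Ptch+/- replicate 1 and NdpKO replicate 4, a setting chosen after seeing the data. The interaction count was 1, Ankrd37, with the mean filter, with raised values and without those 2 arrays, and 0 to 1 with single arrays left out. In tumours against GNPs the count was 1 to 2 with single arrays left out, 2 with the mean filter, raised values, trend and robust moderation or all GNP genotypes in the fit (Vegfa and Ddit4), 2 with the mean of all probes (Ndrg1 and Ddit4) and 4 with cyclic loess (Vegfa, Egln3, Ndrg1 and Ddit4). Between the tumours it was 1 with the mean of all probes (Vegfa 0.73) or raised values (Ankrd37 0.44). With the mean of all probes the Vegfa difference in NdpKO;Ptch+/- against Ptch+/- GNPs was 0.05. The cause of these moves was not tested.

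Differences near 0 changed sign, all uncalled. Without the 2 arrays that sat apart Ddit4 was -0.03 in NdpKO against WT GNPs, and in NdpKO;Ptch+/- against NdpKO GNPs Ddit4 was 0.08 and Egln1 -0.09. With the array of conflicting labels counted as NdpKO, Ddit4 was 0.00 in NdpKO;Ptch+/- against WT GNPs and -0.01 in the interaction. With single arrays left out, Ddit4 ran between -0.01 and 0.08 in NdpKO;Ptch+/- against Ptch+/-, -0.03 and 0.08 in NdpKO against WT, -0.07 and 0.03 in Ptch+/- against WT, -0.06 and 0.04 in NdpKO;Ptch+/- against NdpKO, -0.03 and 0.06 in NdpKO;Ptch+/- against WT GNPs, and -0.05 and 0.07 in the interaction. Egln1 ran between -0.10 and 0.21 in NdpKO;Ptch+/- against NdpKO GNPs, and Vegfa between -0.11 and 0 in NdpKO against WT GNPs.

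Replicate numbers gave no general pairing of the arrays. The deviations of the 24 same-number pairs from their group means had a median correlation of -0.0412. These correlations ran between -0.339 and 0.471, and 3 were over 0.1. Taken over all probes, they cannot exclude that some arrays shared a litter or batch. With the replicate number as a block, 0 of the 10 genes were called in the GNP comparisons. Over all probes the block gave 1 call in NdpKO;Ptch+/- against Ptch+/- (7 without it), 52 in NdpKO against WT (139), 263 in Ptch+/- against WT (494), 12 in NdpKO;Ptch+/- against WT (23) and 72 in the interaction (224). Over the alternatives other than single left-out arrays, all-probe calls ran between 1 and 922, 4 and 1070, 263 and 1439, and 3 and 76 in these 4 comparisons, 0 and 656 in NdpKO;Ptch+/- against NdpKO GNPs (2), and 2 and 2577 in the interaction. Genes below level 5 were followed only in the counts. A level of 5 is near background, so changes of the 5 dim genes could not be read.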
